A study of Mus musculus with 2 samples.

Results

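The Sfmbt2 intronic miRNA cluster was followed in the forebrain of mouse embryos at day 15.5. Its members were all gene rows on the plus strand of chromosome 2 that lie inside Sfmbt2 and whose symbol starts with Mir297, Mir466, Mir467 or Mir669, whether or not they had a count. The rule found 59 members among 1973 miRNA gene rows: 5 Mir297, 20 Mir466, 14 Mir467 and 20 Mir669 genes. Both libraries held small RNA below 30 nt from healthy animals of the B6NCrl strain, as biological replicates of 1 group that was neither treated nor mutated. Replicate 1 pooled forebrains of 78 embryos and replicate 2 those of 62 embryos, male and female together, so differences between single embryos could not be seen. The design has 1 group, so it holds no contrast of conditions, and p-values measure only how these libraries differed. Whether the pools shared a day or litter is not stated, and that spread may be partly technical.

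A microRNA (miRNA) is processed from 1 arm of a folded hairpin transcript and represses the messenger RNAs that its seed pairs with. Sfmbt2 encodes a polycomb group protein, a kind of protein that keeps genes silent through chromatin. Its miRNA cluster is known from mouse and rat, arose by repeated duplication of a few hairpins, and is transcribed with its host. The host and its miRNAs are imprinted in the placenta, where the copy from the father is used and where the cluster is needed for normal growth. Members are also known from mouse embryonic stem cells. Only miRNA genes have rows in these tables, so the host's own messenger RNA was not analysed here.

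All 59 members lay in 1 intron of the host, between exons 10 and 11 of transcript Sfmbt2-201 (mm10, chromosome 2, 10461473 to 10523944, plus strand), and none overlapped an exon of any Sfmbt2 transcript. They spanned 51.6 kb, from Mir466m to Mir669h, with a median gap of 314 bases between neighbours. Their hairpins were 73 to 127 bases long, and 31.5% to 43.4% of their bases were G or C. A further 12 family genes of the annotation in this intron had no row under their identifier and were not analysed here.

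None of the 59 members had an entry among the RefSeq miRNA sequences used here. Of the 10 rows of these families that lie elsewhere in the genome, 8 had a mature sequence there, and 5 of the 8 are shown as examples. Capitals mark the seed, bases 2 to 8, which does most of the pairing with a target (RefSeq, GRCm38.p6). No seed occurred more than 1 time among the 8.
mmu-miR-467f: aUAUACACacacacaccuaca
mmu-miR-467g: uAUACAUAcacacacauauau
mmu-miR-467h: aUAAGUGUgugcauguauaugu
mmu-miR-466k: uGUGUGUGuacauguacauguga
mmu-miR-669n: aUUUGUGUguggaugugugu

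Replicate 1 had 4464927 counts on the sense strand of gene rows and replicate 2 had 4753555. Levels are these counts scaled to a sum of 1000000 per library (CPM). Each read was taken as 1 whole small RNA and not a fragment of a longer one, which was not tested. Levels are therefore compared between genes without a division by length. A count of 0 allows a level of up to 3 counts, which is 0.672 CPM for replicate 1 and 0.631 CPM for replicate 2. Reads carried no molecular identifiers, so these limits and all intervals cover counting error only. Multi-mapping reads had a row of their own, outside the gene rows, and made up 44.6% of the reads of replicate 1 and 42.4% of those of replicate 2. As a check of the tissue label, 9 of 12 neuronal and 3 of 3 matched neural progenitor markers were detected, that is, had at least 10 counts in each library. The neuronal markers not detected were Mir124a-1, Mir124a-2 and Mir124a-3. They had 9, 6 and 0 counts in replicate 1 and 17, 15 and 10 in replicate 2. The progenitor marker Mir9-2 passed with 16 and 14 counts. Marker counts also leave out multi-mapping reads, so a low count of a marker gene is not shown to be a low level of its miRNA. Other cell types also had detected markers: endothelium 1 of 1, mesenchyme and mural cells 5 of 6, oligodendrocyte lineage 3 of 3, erythroid cells 3 of 3, epithelium 6 of 6, immune cells 2 of 2 matched, muscle 1 of 4 matched (Mir1a-1, Mir133a-1 and Mir133a-2 had no count) and liver 1 of 1. In tissue RNA, fewer cells of a type and less RNA per cell cannot be told apart.

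Nearly all counts in the member rows came from 6 genes. These counts leave out multi-mapping reads and the 12 family genes without a row. The level of the whole cluster is therefore not known from them. The members summed to 11998 counts in replicate 1 and 12170 in replicate 2, or 2687 and 2560 CPM (2624 ± 89.8 CPM, SD, n = 2). Mir467c, Mir467e and Mir467d held 83.3% of these counts in replicate 1 and 83.9% in replicate 2. Together with Mir669o, Mir669l and Mir669c they held 98.9% and 98.4%. Of the 59 members, 9 were detected (15.3%), against 18.8% of all 1973 rows, so the share of detected genes stood near that of the whole table. The remaining 50 were 2 members with at least 10 counts in total, 8 with 1 to 9 and 40 with none in either library.

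**Figure D1:**
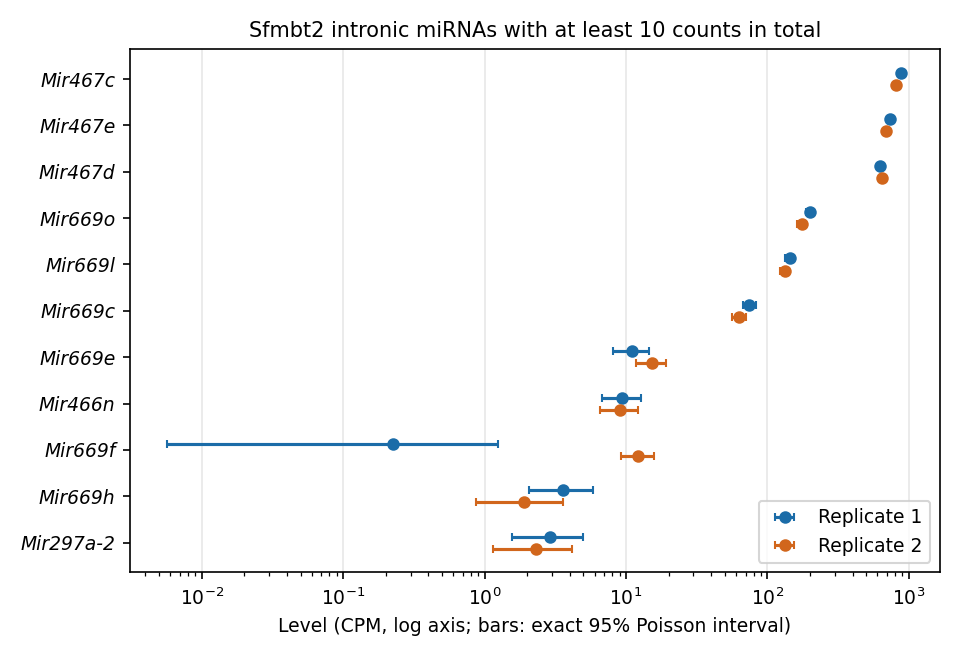
Level of each Sfmbt2 member with at least 10 counts over both libraries, in CPM on a log axis; points are the 2 libraries and bars exact 95% Poisson intervals. The 3 Mir467 genes stand between 624 and 880 CPM in both libraries, and Mir669f shows the widest gap between the libraries, at 0.224 and 12.2 CPM.

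The Mir467 genes were the most abundant members. The miR-467 family is known from work on blood vessel growth, where it was described as lowering the output of thrombospondin 1. That role was not tested here for any member. Mir467c (ENSMUSG00000077049.2, chromosome 2, 10473931 to 10474027) had 3930 counts in replicate 1 and 3832 in replicate 2, or 880 and 806 CPM. At 843 ± 52.4 CPM (SD, n = 2) it ranked 89 among all 1973 rows. Mir467e (ENSMUSG00000076948.2, 10505721 to 10505807) had 3283 and 3292 counts, or 735 and 693 CPM, and ranked 95. Mir467d (ENSMUSG00000077021.2, 10507630 to 10507714) had 2787 and 3092 counts, or 624 and 650 CPM, and ranked 102. The 3 genes kept this order in both libraries, and each gap between their means exceeded the larger SD of the pair.

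The other 11 Mir467 members were Mir467b and 10 copies named Mir467a. Mir467b had no sense count in replicate 1 and 2 in replicate 2. All 10 Mir467a rows stood at 0 in both libraries. A family that holds the 3 highest members thus also held 10 rows with no count.

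Among the 20 Mir669 members, 3 had levels above 60 CPM. Mir669o (ENSMUSG00000077086.1, 10514300 to 10514395) had 897 counts in replicate 1 and 828 in replicate 2, or 201 and 174 CPM. Mir669l (ENSMUSG00000076959.1, 10468971 to 10469068) had 641 and 628 counts, or 144 and 132 CPM. Mir669c (ENSMUSG00000076118.1, 10509296 to 10509404) had 333 and 298 counts, or 74.6 and 62.7 CPM. The values of these 3 genes did not overlap, and their means differed by more than the larger SD of each neighbouring pair. Mir669e followed with 49 and 72 counts (11.0 and 15.1 CPM), and Mir669h with 16 and 9 counts (3.58 and 1.89 CPM).

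Mir669f differed most between the libraries. It had 1 count in replicate 1 and 58 in replicate 2, or 0.224 and 12.2 CPM. Of the rest of the family, Mir669a-3 had 1 count in replicate 2 only and 13 rows had none in either library. Mir669a, a family name linked to the repression of MyoD in the heart, was thus read through 1 count over its 3 rows. Its level is not known from them, since the genes Mir669a-4 to Mir669a-12 of this intron had no row. Of the 3 rows, Mir669a-1 shared all 97 bases of its hairpin with Gm26092. Mir669a-2 shared a run of 93 of its 97 bases with Mir669a-1. Whether this sharing lowered their counts was not tested.

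The Mir466 and Mir297 genes were low. Of the 20 Mir466 members only Mir466n was detected, with 42 counts in replicate 1 and 43 in replicate 2 (9.41 and 9.05 CPM). Of the other Mir466 rows, 6 had 1 to 4 counts over both libraries and 13 had none. Mir466l, with 4 counts in replicate 1 and 0 in replicate 2, was the highest of these. Mir466o had 1 count in each library, Mir466b-3 had 1 in replicate 1, and Mir466, Mir466g and Mir466h had 1 each in replicate 2. Of the 5 Mir297 members, Mir297a-2 had 13 and 11 counts (2.91 and 2.31 CPM) and the other 4 had none.

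From Mir467c down to Mir297a-2, the 11 members with at least 10 counts in total ran over a 323-fold range of mean CPM, though they come from 1 intron. The order was Mir467c, Mir467e, Mir467d, Mir669o, Mir669l, Mir669c, Mir669e, Mir466n, Mir669f, Mir669h and Mir297a-2. Every neighbouring pair from Mir467c to Mir466n differed by more than the larger SD of the pair, with no overlap of values. The order of the last 4, Mir466n, Mir669f, Mir669h and Mir297a-2, was not separated by that measure. The widest step was from Mir669c at 68.6 CPM to Mir669e at 13.1 CPM, a ratio of 5.26.

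Members with counts were grouped by position in the intron. The 11 members with at least 10 counts in total lay in 2 stretches at the ends of the cluster. The first stretch ran from Mir669f to Mir467c and the last from Mir467e to Mir669h. Between them, from Mir669a-3 to the row Gm26398 (10474433 to 10504773, 30.3 kb), lay 60 miRNA rows, 26 of them members and 34 with other symbols, and 56 of the 60 had no count. The 60 rows held 5 counts over both libraries together, and no row held more than 2. The ends of this stretch were set by the counts, so its low counts follow in part from that choice. Family genes without a row, from Mir466e to Mir669a-12, also lay in it, and their levels are not known.

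**Figure D2:**
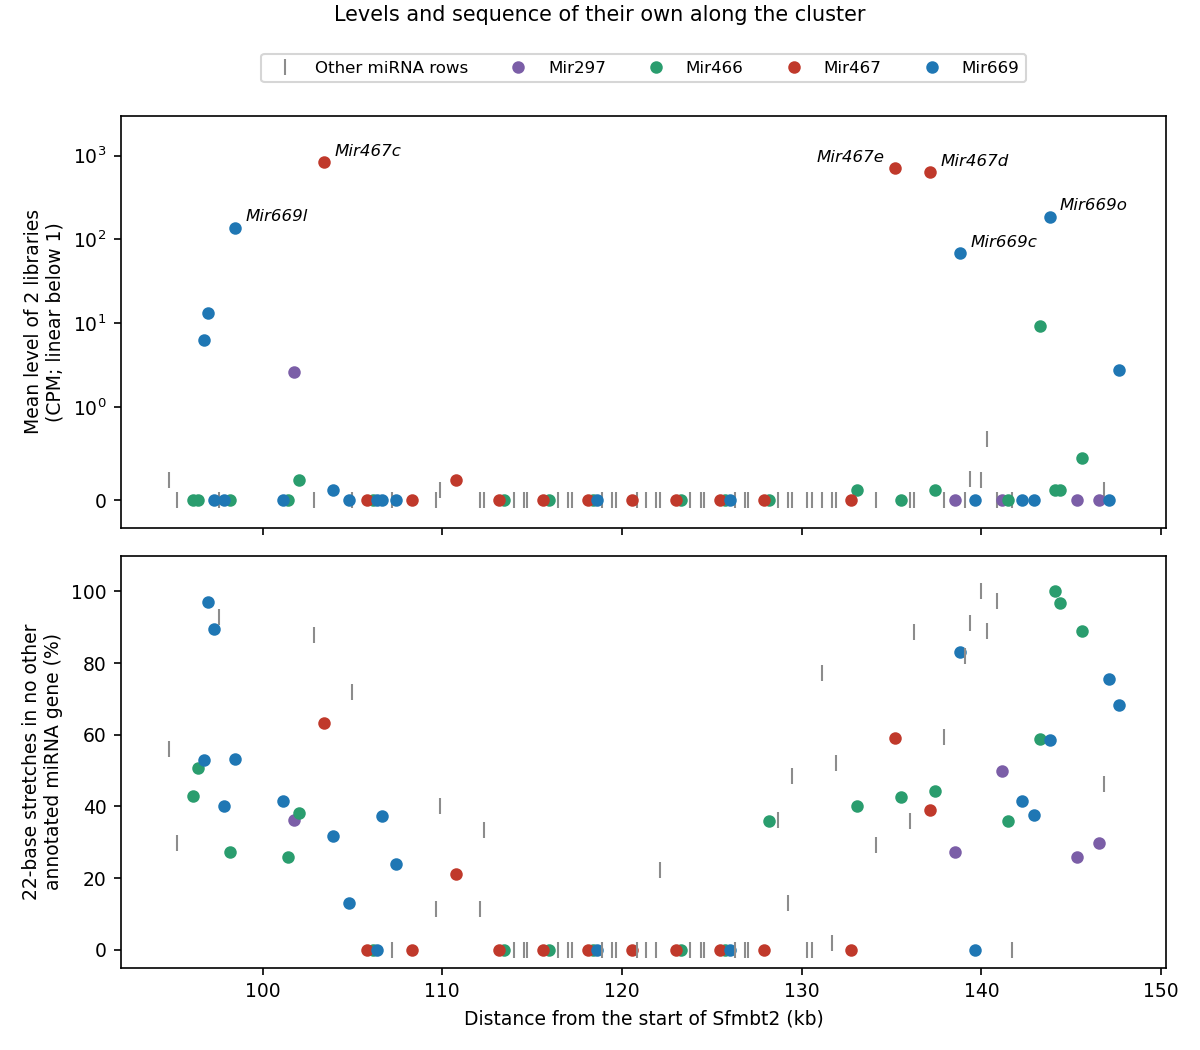
Upper panel, mean CPM of the 2 libraries for each miRNA row inside Sfmbt2 against the distance of its start from the start of the host in kb, on an axis that is linear below 1 CPM and logarithmic above; lower panel, the share of each hairpin's 22-base stretches that occur in no other annotated miRNA gene. Colours give the 4 families and grey ticks the 48 other miRNA rows; the rows from 103.9 to 134.3 kb stand at or near 0 in the upper panel, and most of them at 0% in the lower one.

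The hairpins also differed along the intron in how much sequence they shared. Each hairpin was divided into all its stretches of 22 bases, about the length of a mature miRNA, and each stretch was looked for on both strands of all other annotated miRNA hairpins. Of the 59 members, 58 shared at least 1 stretch with another gene row, against 46.3% of the 1894 rows with a sequence. The exception was Mir466g. In 20 members no stretch was their own, and these were 10 Mir467, 6 Mir466 and 4 Mir669 genes. All 10 Mir467a genes were among them: each shared stretches with 14 other gene rows. Over the 60 rows of the quiet middle of the intron, the median share of stretches of their own was 0%.

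All 20 members with no stretch of their own had 0 counts in both libraries. Among the other miRNA rows, 240 had no stretch of their own, and 5 of these were detected (2.08%). Another 232 of the 240 had no count in either library. The highest of the 5 detected was Mir30e at 20640 CPM. Of those 5, Mir30e, Mir451a, Mir539 and Mir873a overlap another annotated miRNA gene at their own place in the genome, which leaves them no stretch of their own without a copy elsewhere, and Gm23935 does not. No member overlaps another annotated miRNA gene, so the stretches members share lie in hairpins at other places. The 9 detected members all had stretches of their own, between 36.2% and 96.9% of their hairpin. For Mir467c this share was 63.2%, for Mir467e 59.1% and for Mir467d 39.1%. The longest stretch that Mir467c and Mir467e shared was 48 bases, and Mir467d shared 60 bases with Mir467a-2. A read that fits several hairpins equally well may be in the multi-mapping row, though no aligner or counting tool is named. A member with a count of 0 is thus not shown to be silent. The part of shared sequence in the levels was not tested.

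Sequence of its own did not always go with counts. The remaining 20 members at 0 had stretches of their own, from 13.2% of the hairpin for Mir669k to 89.5% for Mir669b. Mir466g, whose hairpin shared no stretch, and Mir466h, with 96.7% of its own, had 1 count each. Mir669e had 96.9% and stood at 13.1 CPM, while Mir467d had 39.1% and stood at 637 CPM. Of the 15 members with over 50% of their own, 7 were detected (46.7%), against 26.2% of 1322 other rows with such a share. Of the 24 members with some but at most 50%, 2 were detected (8.33%), against 3.66% of 273 other rows. These are descriptions of 1 tissue, and members of a duplicated cluster are not independent of each other.

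**Figure D3:**
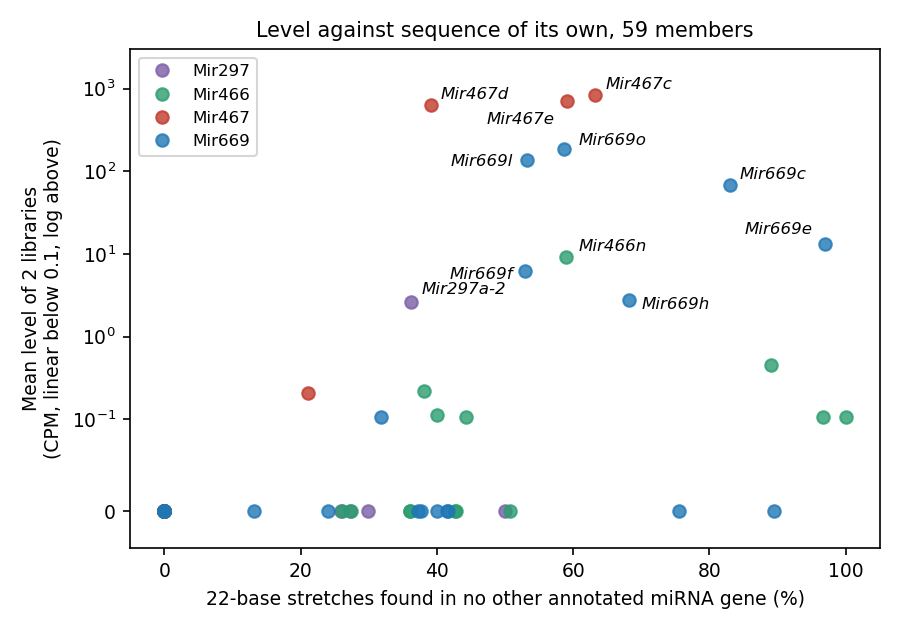
Mean CPM of the 2 libraries (linear below 0.1, logarithmic above) against the share of 22-base stretches found in no other annotated miRNA gene, for the 59 members, with colours for the families and names for the 11 members with at least 10 counts in total. The 20 members at 0% on the horizontal axis all lie at 0 CPM, and members with high shares lie anywhere from 0 to 843 CPM.

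The libraries differed little for most members. Of the 11 members with at least 10 counts in total, 4 differed between the libraries by more than counting error, with 1 member higher and 3 members lower in replicate 2 (two-sided exact binomial test per gene, Benjamini-Hochberg adjusted over all 457 genes tested). Over all 457 genes the test called 36.3%, with 19.3% higher and 17.1% lower in replicate 2, so the members' share was near the background. The median log2 ratio of replicate 2 over replicate 1 was -0.12 for the members and 0.05 for all genes tested. The spread between replicates as edgeR's coefficient of variation over all genes was 16.1%, which corresponds to an SD of 0.33 for a log2 ratio. The ratios of the 3 members called lower were smaller than that, and the ratio of the member called higher was larger.

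Mir669f was the member called higher. Its 1 count in replicate 1 and 58 in replicate 2 gave a log2 ratio of 5.20 (exact 95% interval 3.23 to 11.1, exact binomial test, adjusted p = 8.95e-15). This was the highest absolute log2 ratio of the 457 genes tested, and the next highest, for Mir124a-3, was 4.30. Mir669f ranked 1 under each of the 7 other settings. Other library totals shift all log2 ratios by the same amount, and a higher count minimum only removes genes, so these ranks test little. Mir466f-1, the nearest row before Mir669f, stood at 0 in both libraries and so could not show a difference. Mir669e, 145 bases further on, had a log2 ratio of 0.46 (interval -0.08 to 1.02, exact binomial test, adjusted p = 0.18). Of the 22-base stretches of Mir669f, 53.0% were its own, and it shared 51 bases with Mir466m, which had no counts. What set the libraries apart at this row was not tested.

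The 3 members called lower in replicate 2 were abundant ones with small ratios. Mir467c had a log2 ratio of -0.13 (interval -0.19 to -0.06, exact binomial test, adjusted p = 0.00044). Mir669o had -0.21 (interval -0.34 to -0.07, exact binomial test, adjusted p = 0.010), and Mir467e had -0.09 (interval -0.16 to -0.02, exact binomial test, adjusted p = 0.043). With Mir99a, the most abundant gene, left out of the library total, none of the 3 passed the test, Mir467d passed as higher (log2 ratio 0.12, exact binomial test, adjusted p = 0.0053), and the split became 2 higher and 0 lower. With TMM or DESeq2 scaling it was 1 higher and 4 lower, Mir669c being added. Over all genes the split was 88 higher and 78 lower as scaled here, 72 and 96 with TMM, 80 and 87 with DESeq2 size factors, and 125 and 56 without Mir99a.

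**Figure D4:**
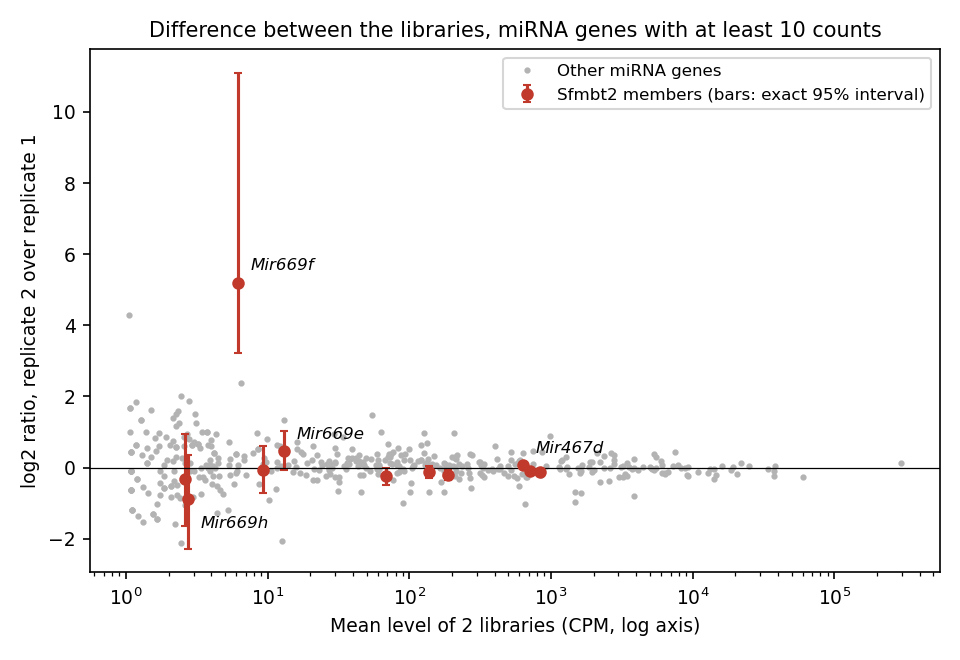
log2 ratio of replicate 2 over replicate 1 against mean CPM (log axis) for the 457 genes with at least 10 counts in total; grey points are other miRNA genes, red points the 11 members, with exact 95% intervals. Mir669f stands at 5.20, above every other gene, and the other 10 members lie between -0.89 and 0.46.

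Shares within the cluster do not depend on the library total. Mir467c made up 32.8% of the members' counts in replicate 1 (Clopper-Pearson 95% interval 31.9 to 33.6) and 31.5% in replicate 2 (30.7 to 32.3). Mir467e made up 27.4% (26.6 to 28.2) and 27.1% (26.3 to 27.8). Mir467d made up 23.2% (22.5 to 24.0) and 25.4% (24.6 to 26.2), the only one of these 3 whose intervals lay apart. Mir669o made up 7.48% (7.01 to 7.96) and 6.80% (6.36 to 7.27), and Mir669l 5.34% (4.95 to 5.76) and 5.16% (4.77 to 5.57). The shares of these abundant members were thus close in the pools, with Mir467c, Mir467e and Mir467d in the same order. That of Mir669f was not, at 0.0083% (0.0002 to 0.046) in replicate 1 and 0.477% (0.362 to 0.616) in replicate 2.

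Counts on the strand opposite to the members were nearly absent. Mir467b had 2 in replicate 1, and no other member had any in either library. This was 0.0167% of the members' counts on both strands in replicate 1 (Clopper-Pearson 95% interval 0.0020 to 0.060) and 0 of 12170 in replicate 2, where the interval reached 0.030%. Over all gene rows the share was 1.59% and 1.49%.

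The 48 other miRNA rows inside Sfmbt2 carried predicted symbols (Gm) in the annotation, and none was detected. They held 8 counts in replicate 1 and 6 in replicate 2, over 6 rows. The highest was Gm22925, with 4 and 2 counts. Of these rows 47 shared a stretch of 22 bases with another row and 22 had none of their own (45.8%), against 20 of the 59 members (33.9%).

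Rows of the same families elsewhere in the genome had no counts. All 10, Mir297-1, Mir466f-4, Mir466i, Mir466j, Mir466k, Mir466q, Mir467f, Mir467g, Mir467h and Mir669n, stood at 0 on both strands in both libraries. Each had stretches of its own, from 40.0% for Mir297-1 and Mir467h to 100% for Mir669n. Among the rows matched to a symbol, all counts of the 4 families were thus in rows inside Sfmbt2.

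Other loci served as a background for these levels. In the imprinted cluster from Mir379 to Mir410 on chromosome 12, which is expressed from the copy of the mother, 29 of 33 rows were detected, and the rows summed to 41915 CPM in the first library and 37434 CPM in the second. The highest was Mir487b at 14700 CPM, and none of the 33 rows shared a stretch of 22 bases with another row. Mir539, among them, had no stretch of its own, since a gene with no row is annotated over it. The 5 miRNA genes of other imprinted loci (Mir335, Mir296, Mir298, Mir483 and Mir675) were all detected, led by Mir335 at 37289 CPM. Of the 554 miRNA rows that lie in sense in introns of other protein-coding genes, 136 were detected (24.5%), led by Mirlet7g at 59954 CPM, and 143 shared a stretch (25.8%).

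The cluster is best known from placenta and pluripotent stem cells, so miRNAs of those cells were set beside it. The locus from Mir290a to Mir295, whose miRNAs mark early embryonic cells and trophoblast, had 7 rows, and 1 was detected, Mir293, with 11 counts in replicate 1 and 19 in replicate 2. The 7 rows summed to 8.51 and 7.57 CPM in the libraries, below the 2687 and 2560 CPM of the Sfmbt2 members. Mir302a, of a cluster known from pluripotent cells, stood at 106 CPM on average. Over the whole list of trophoblast and pluripotent cell markers, 5 of 11 genes were detected, and the list summed to 268.8 and 268.6 CPM.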

How the data were processed

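Small RNA was sequenced from 2 pools of embryonic forebrain. Per the deposited README text, the authors' deposited tables hold unnormalized read counts for each miRNA gene, from alignments to mm10 with GENCODE M4 annotation. No aligner or counting tool is named in the sources used here. Each table gave counts on either strand and on each strand, and the sense strand was taken to be the one whose column summed higher.

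Names, coordinates and hairpin sequences came from GENCODE M21, on the same build, by identifier (1894 of 1973 rows matched). Rows for unmapped reads, multi-mapping reads and reads with no feature on either strand, 14.3%, 44.6% and 2.42% of reads in replicate 1 and 18.2%, 42.4% and 2.53% in replicate 2, were left out of totals. CPM was the count over the sum of gene rows. Libraries were compared with an exact binomial test (SciPy 1.17.1) for genes with at least 10 counts in total, adjusted p below 0.05, with 0.5 counts added for ratios. The quasi-likelihood test was not run, since 1 group gives no contrast. edgeR 4.0.16 and DESeq2 1.42.0 gave scaling factors and the coefficient of variation. The test was tried on simulated counts with known changes and counting error only. It was therefore not tried at the spread seen between these libraries.

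Every member with a count was to be named, with both counts from 10 in total, and for each background list its highest gene. The 5 highest family genes elsewhere could not be picked, since all 10 were at 0, and all are named. Mir124a-1, Mir124a-2, Mir124a-3, Mir9-2, Mir99a, Mir293, Mir539, Mir30e and the other overlapping genes were chosen after their values were seen. The ends of the quiet middle stretch were also set by the counts. A listed marker with no row under its symbol was matched through RefSeq synonyms (Mir292a to Mir292). The members and lists were chosen with earlier results of these data known. Alternatives were other scalings, strands, count minimums, added counts, stretch lengths and leaving out each replicate. Those on rows with other symbols and on all annotated genes were chosen after seeing the data.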

Additional observations from a re-analysis of the deposited data

How the results depend on the processing

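Of 34 alternative values of the main results, 31 stayed within the limits set for them. The limits were the SD for the summed level and 1.5 times for counts. For the median log2 ratio the limit was 0.33, and for the opposite-strand share its Clopper-Pearson interval. With n = 2, leaving out either library always keeps the summed level within the SD, so those values test nothing. The 0.33 is the SD of a single gene's log2 ratio, a wide limit for a median. The summed level of the members became 3731 CPM with Mir99a left out of the library total and ranged from 2560 to 2687 CPM without 1 replicate each. The number of members called different between the libraries fell from 4 to 2 when Mir99a was left out, and was 3 to 5 under the other settings. The opposite-strand share was 0 without replicate 1 and 0.0167% without replicate 2, against 0.0083% over both. Detected members numbered 12, 10 and 6 with at least 1, 5 and 100 counts in each library, and 10 without replicate 1 or without replicate 2. The 58 members that shared a stretch of 22 bases became 56 with 25 bases. Among ratios of single members, that of Mir466n changed sign, to 0.0029 without Mir99a in the total. Calls changed for Mir467c, Mir467d, Mir467e, Mir669c and Mir669o under at least 1 setting, Mir467e also with no count minimum (exact binomial test, adjusted p = 0.068). No paired analysis was possible because there is 1 group. By the limit of 3 counts, depth holds members at 0 to under 0.672 CPM of reads placed at 1 locus. Unannotated copies in the genome were not searched.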
